A study of Homo sapiens with 6 samples.

Results

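The 9 genes described here encode the brake and the motor of the G1 phase of the cell cycle: the CDK inhibitors CDKN1A, CDKN1B, CDKN2C and CDKN2D, the D-type cyclins CCND1, CCND2 and CCND3, and their kinase partners CDK4 and CDK6. They were taken by gene name from tables of 60325 gene rows, and all 9 listed genes were found with a value in all 6 libraries. The RNA came from THP-1 cells, a line founded from a human monocytic leukaemia that grows in suspension and serves as a monocyte model. Cells had been given recombinant human IL-6 and collected after 6, 24 or 48 h, or were controls ("ctrl" in the labels) of the same times. There was 1 library for each of the 6 conditions, and no label says what the controls received or whether the time points came from separate cultures. The question of the study was how IL-6 alters gene expression in these cells. THP-1 is a dividing tumour line, which limits it as a model of blood monocytes, which seldom divide.

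D-type cyclins bind CDK4 or CDK6, and the active pair phosphorylates the retinoblastoma protein, which frees E2F transcription factors to switch on the genes of DNA replication. Inhibitors of the INK4 family, here CDKN2C (p18) and CDKN2D (p19), bind CDK4 and CDK6 alone and keep the cyclin away. Inhibitors of the Cip/Kip family, here CDKN1A (p21) and CDKN1B (p27), bind cyclin and kinase together, and block CDK2 most strongly. In monocytic cells CDKN1A is also known as a gene switched on when dividing precursors differentiate. IL-6 is known as a growth factor of plasma cell tumours, and it stops the growth of some mouse myeloid leukaemia lines.

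The deposited value of a gene is a log2 value centred on that gene's mean over the libraries, so a difference of 1 is 2-fold and 0 is the gene's own mean. Levels comparable between genes were recovered in an arbitrary unit from the whole-number ratios of these values, and this worked for 6 of the 9 genes. CDKN2C, CCND3 and CDK4 had no recovered level, and only their log2 values are given. The lowest recovered level in a library lay between 0.244 and 0.763 among genes of up to 256 bases and between 0.0115 and 0.0266 among genes of 513 to 1024 bases, a fall with gene length that length-normalised values have. The higher a level, the less certain it is, because more whole numbers lie within the tolerance of the match. A value was listed for between 22000 and 23108 genes per library, and the tables hold no read counts, so the depth is unknown. All 12 markers of the monocyte line that were looked at, CD14, CD33 and SPI1 among them, had 6 values, while CD3E of T cells, MS4A1 of B cells and HBB, PF4 and PPBP of red cells and platelets had no value in any library. CD79B of B cells, NKG7 of NK cells and KRT8 of epithelium were listed and tested, and their part in the results below was not tested. Of 5 genes of the known IL-6 response, 4 rose: PIM1, a STAT3 target kinase gene, was higher with IL-6 by 2.67 ± 0.18 on the log2 scale (limma SE, 3 pairs, adjusted p = 0.000222), and BCL3, CCL2 and STAT3 passed the same test. SOCS3, the feedback inhibitor and the remaining gene of the list, named after its values were seen, had a difference of 2.54 ± 0.48 and did not pass (limma adjusted p = 0.113). The count of 4 was 3 with non-robust shrinkage, without the level filter, or without the 24 h or the 48 h pair. It was 2 without the time term and 0 without the variance trend. The list was chosen with earlier results of these data known, so these calls are not an independent check.

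CDK6 had the highest mean recovered level, at 51.1 ± 6.39 (SD over the 6 libraries), followed by CDKN1A at 37.9 ± 22.2, CDKN2D at 24.4 ± 9.18 and CCND1 at 11.2 ± 3.31. CDKN1B and CCND2 were low, at 1.21 ± 0.33 and 0.208 ± 0.112. The order of the upper 4 genes was not fixed. CDK6 exceeded CDKN1A in 5 of 6 libraries, CDKN1A exceeded CDKN2D in 5 of 6, and CDKN2D exceeded CCND1 in 5 of 6, so none of these neighbours was separated beyond its spread over the libraries. CCND1 exceeded CDKN1B in 6 of 6 libraries, by between 5.98-fold and 15.3-fold, and CDKN1B exceeded CCND2 in 6 of 6.

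**Figure D1:**
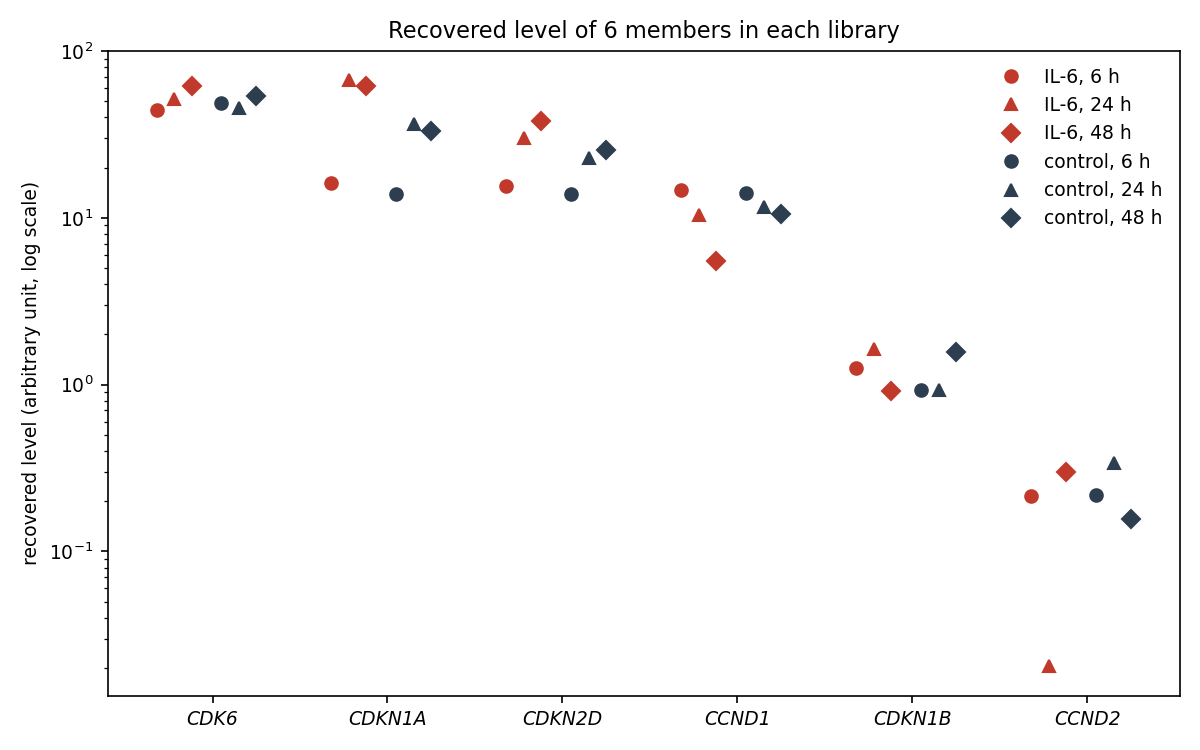
Recovered level in an arbitrary unit on a log axis for the 6 genes with a recovered level, 1 point per library, with the 3 IL-6 libraries in red to the left of the 3 control libraries in dark blue. CDK6 stayed between 44.6 and 61.9, CDKN1A spread from 13.8 to 66.9, and the lowest point is CCND2 in the IL-6 library of 24 h, at 0.0205.

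Within a library these levels can be compared between genes, but they are RNA and do not give the balance of the proteins. The level of CDKN2D over that of CDK6 was 0.346, 0.587 and 0.618 with IL-6 at 6, 24 and 48 h. In the controls it was 0.285, 0.502 and 0.475. The level of CDKN1A over that of CDK6 was 0.361, 1.30 and 0.991 in the IL-6 libraries of 6, 24 and 48 h, against 0.284, 0.794 and 0.610 in the controls. The level of CCND1 over that of CDKN1A was 0.913, 0.156 and 0.0898 with IL-6 at 6, 24 and 48 h, against 1.03, 0.321 and 0.319 in the controls. At 6 h the RNA of cyclin D1 and of p21 stood at nearly the same level in both libraries, and at 24 and 48 h p21 RNA was the more abundant in all 4 libraries. The lowest of the 6 ratios of CCND1 to CDKN1A was that of the IL-6 library of 48 h.

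CDKN1A and CDKN2D, an inhibitor of each family, passed the test as higher at 24 and 48 h than at 6 h. These calls were lost under some of the other settings, as given below. The sequences before their RefSeq start sites are shown because these were the members called over culture time. That of CDK4, which passed no test, stands beside them. Each is the 250 bases before the start, from RefSeq on GRCh38.p14, read 5′ to 3′ on the gene's strand. Capitals mark the E-box CACGTG, the site of MYC and MAX, and, on either strand, the GC-box core GGGCGG, bound by SP1.
CDKN1A, chr6:36678464-36678713, plus strand: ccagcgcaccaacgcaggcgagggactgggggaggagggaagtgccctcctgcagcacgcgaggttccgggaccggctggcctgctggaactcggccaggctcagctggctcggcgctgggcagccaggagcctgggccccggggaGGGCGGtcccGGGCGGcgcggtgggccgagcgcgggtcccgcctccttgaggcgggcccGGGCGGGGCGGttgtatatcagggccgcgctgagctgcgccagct
CDKN2D, chr19:10568980-10569229, minus strand: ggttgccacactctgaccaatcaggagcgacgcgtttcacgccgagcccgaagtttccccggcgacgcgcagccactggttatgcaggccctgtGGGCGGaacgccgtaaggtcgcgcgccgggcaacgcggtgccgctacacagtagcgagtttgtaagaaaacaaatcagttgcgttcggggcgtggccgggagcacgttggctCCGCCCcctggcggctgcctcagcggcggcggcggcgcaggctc
CDK4, chr12:57752311-57752560, minus strand: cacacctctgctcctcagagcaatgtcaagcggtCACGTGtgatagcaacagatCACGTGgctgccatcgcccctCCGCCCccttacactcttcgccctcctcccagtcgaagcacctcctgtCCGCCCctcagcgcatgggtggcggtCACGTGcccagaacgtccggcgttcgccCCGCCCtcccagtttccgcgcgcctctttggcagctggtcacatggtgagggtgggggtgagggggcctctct

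The 7 genes with an entry had 12 such windows, and CCND1 and CCND2 were named only. The motifs searched on both strands were TTCNNNGAA for STAT factors, the E-box CACGTG, the E2F motif GCGGGAA and the SP1 motif GGGGCGGGG. The core GGGCGG, which lies inside the SP1 motif, was added after the first 4 motifs had no match in the windows of CDKN1A and CDKN2D. Of 35116 promoter windows, TTCNNNGAA was held by 6.57%, CACGTG by 6.34%, GCGGGAA by 5.52%, GGGGCGGGG by 15.1% and GGGCGG by 42.6%. No member's window held TTCNNNGAA. CDK4 held CACGTG 3 times, CDKN2C held it too and also held GCGGGAA, and CCND3 held GGGGCGGGG. GGGCGG stood 4 times before CDKN1A, 2 times before CDKN2D and 3 times before CDK4. All 7 genes with an entry held it in at least 1 window. Its presence thus did not separate the genes that rose from those that did not pass. The windows of CDKN1A and CDKN2D were 76.4% and 67.6% G and C, against a median of 58% over all windows.

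CDKN1A, on chromosome 6 from 36676460 to 36687337 on the plus strand (GRCh38), had the largest difference over culture time among the tested members. Its recovered level was 16.1, 66.9 and 61.4 in the IL-6 libraries of 6, 24 and 48 h, against 13.8, 36.3 and 33.0 in the control libraries of the same times. Both 6 h libraries lay below all 4 later ones, and the values did not overlap. The share of all tested genes with such a separation was not counted, here or for the members below. Within the IL-6 libraries the level of 24 h was 4.15-fold and that of 48 h 3.81-fold that of 6 h, and within the controls these ratios were 2.63-fold and 2.39-fold. Averaged over both agents, CDKN1A rose by 1.72 ± 0.19 on the log2 scale at 24 h against 6 h (limma adjusted p = 0.00267) and by 1.59 ± 0.19 at 48 h against 6 h (limma adjusted p = 0.00347). At 48 h against 24 h the difference was -0.13 ± 0.19 and did not pass (limma adjusted p = 0.859). The SE here comes from a model of time and agent over 6 libraries with 2 residual degrees of freedom, and p-values are adjusted over 13513 tested genes.

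CDKN2D, on chromosome 19 from 10566460 to 10569059 on the minus strand, encodes the INK4 protein p19 that binds CDK4 and CDK6. Its level was 15.4, 30.2 and 38.3 in the IL-6 libraries of 6, 24 and 48 h, against 13.9, 22.9 and 25.7 in the controls. Here too both 6 h libraries lay below all 4 later ones, and within each agent the level of 48 h was above that of 24 h. It rose by 1.10 ± 0.18 at 48 h against 6 h on the log2 scale (limma adjusted p = 0.0117), or 2.14-fold. The difference of 24 h against 6 h was 0.85 ± 0.18 (limma adjusted p = 0.0459), and this call was lost when the libraries were set to equal medians, with 0.75 and an adjusted p of 0.0776, and likewise with non-robust shrinkage (limma adjusted p = 0.0780) and without the level filter (limma adjusted p = 0.0846).

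Of the 8 tested genes, 2 rose at 24 h against 6 h, where 1.91% of all tested genes passed in either direction, and the same 2 rose at 48 h against 6 h, where 3.93% passed. None of the 8 passed between 48 and 24 h, where 0.518% of tested genes did. CCND2 was not tested because its mean level was below 1. The median difference of the 8 genes was 0.16 at 24 h and 0.35 at 48 h against 6 h, and that of all tested genes 0.11 and 0.07. Over all tested genes 218 rose and 40 fell at 24 h, and 339 rose and 192 fell at 48 h. With equal medians of the libraries these splits were 141 and 64 at 24 h and 282 and 289 at 48 h, so the share of higher calls depends on the scaling. Both genes lost both calls without the variance trend and without the agent term, with adjusted p-values from limma of 0.210 and 0.112 for CDKN1A and of 0.245 and 0.133 for CDKN2D at 24 h, and of 0.1995 and 0.0865 for CDKN1A and of 0.207 and 0.0513 for CDKN2D at 48 h.

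None of the other tested members passed over culture time. CCND1, the cyclin D1 gene on chromosome 11 from 69641156 to 69654474, had a level of 14.7, 10.4 and 5.51 in the IL-6 libraries of 6, 24 and 48 h, against 14.2, 11.6 and 10.5 in the controls. It was the opposite of CDKN1A in that both 6 h libraries lay above all 4 later ones, and the IL-6 library of 48 h stood lowest. The difference of 48 h against 6 h was -0.92 ± 0.27 (limma adjusted p = 0.0863), made up of -1.42 within the IL-6 libraries and -0.43 within the controls. CCND3, cyclin D3, on chromosome 6 from 41934934 to 42050357, is the D-type cyclin best known from blood cells. Its deposited log2 value was -0.05, 0.06 and 0.36 with IL-6 at 6, 24 and 48 h, against -0.31, -0.17 and 0.10 in the controls. It was highest at 48 h in both agents, and the difference of 48 h against 6 h was 0.41 ± 0.12 (limma adjusted p = 0.0947), 0.41 in each agent.

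CDKN2C, the INK4 inhibitor p18, on chromosome 1 from 50960745 to 50974634, had deposited log2 values of -0.33, 0.03 and 0.16 with IL-6, against -0.12, 0.10 and 0.16 in the controls of 6, 24 and 48 h. Both 6 h values were the lowest, and the difference of 48 h against 6 h was 0.38 ± 0.13 (limma adjusted p = 0.123). CDK4, on chromosome 12 from 57747727 to 57756013, had values of 0.14, -0.03 and 0.03 with IL-6, against 0.14, -0.26 and -0.02 in the controls, a range of 0.40 that was the narrowest of the 9 genes. CDK6, on chromosome 7 from 92604921 to 92836573, had levels of 44.6, 51.5 and 61.9 with IL-6, against 48.6, 45.7 and 54.1 in the controls. Both kinases thus stayed within a narrow band, and the difference of CDK6 at 48 h against 6 h was 0.31 ± 0.15 (limma adjusted p = 0.256), and that of CDK4 at 24 h against 6 h was -0.29 ± 0.13 (limma adjusted p = 0.289).

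**Figure D2:**
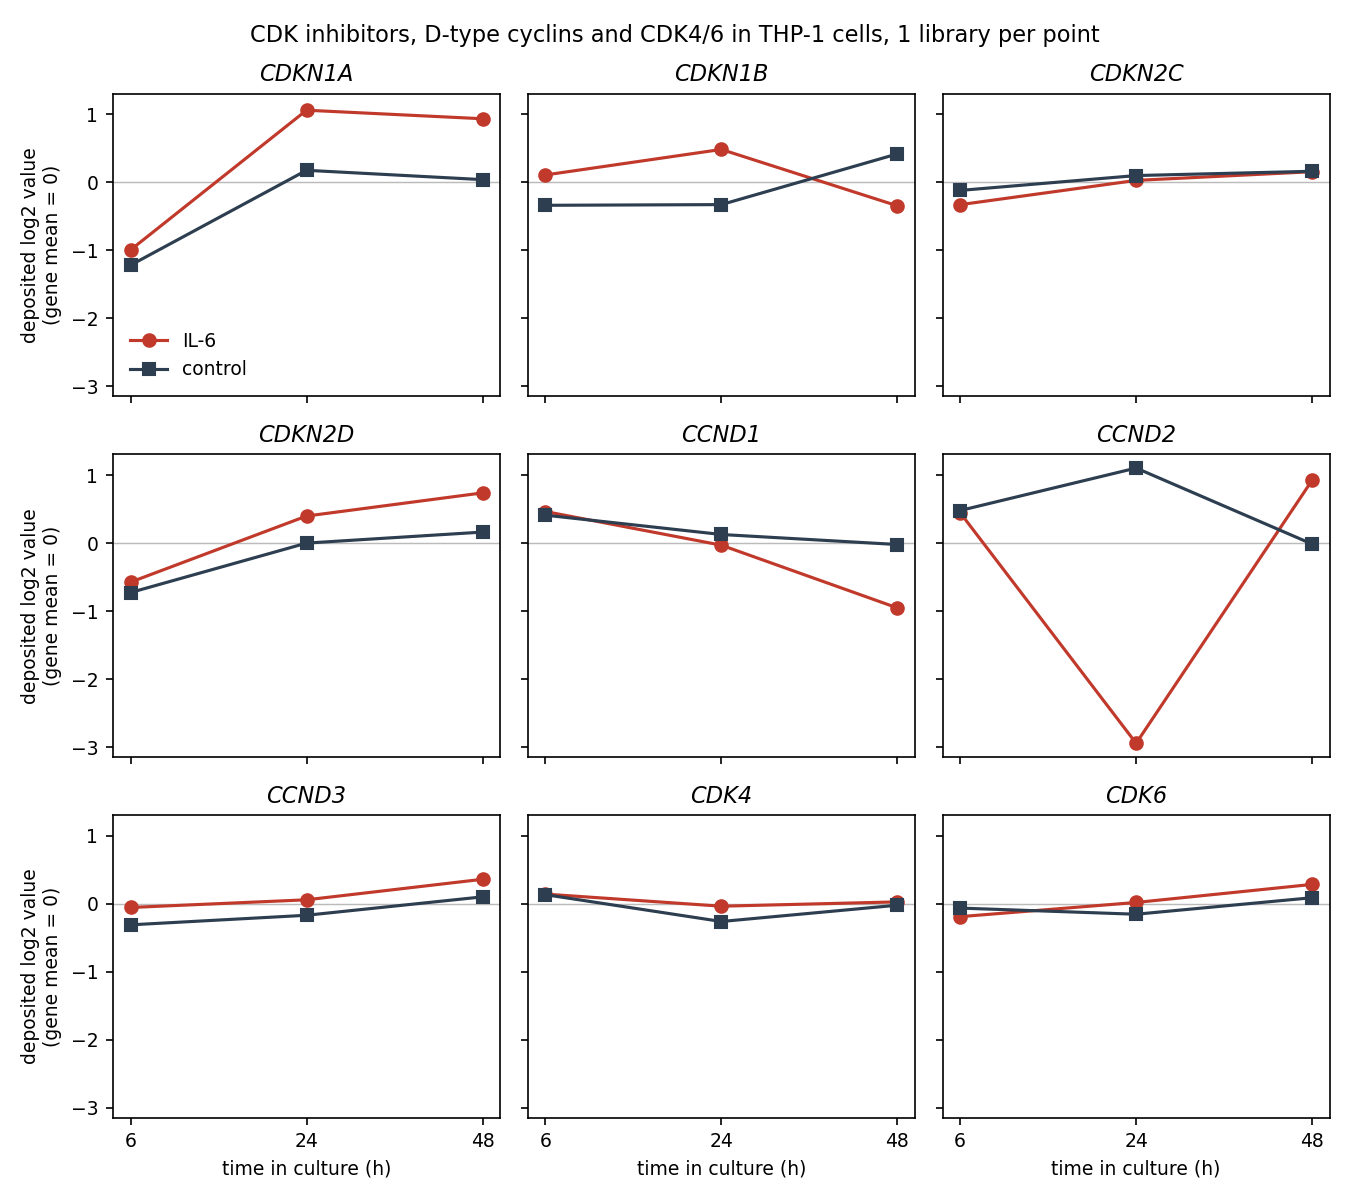
Deposited log2 value (gene mean at 0) of the 9 genes against hours in culture, with red circles for IL-6 and dark blue squares for control libraries, 1 library per point, on 1 common vertical scale. CDKN1A and CDKN2D climb between 6 and 24 h in both agents, CCND1 descends with the IL-6 library of 48 h lowest at -0.95, and CDK4 and CDK6 span 0.40 and 0.47.

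With IL-6 against control, none of the 8 tested members passed the test over the 3 time-matched pairs, where 0.244% of the tested genes did, 32 higher and 1 lower. At an unadjusted limma p under 0.05 there were 502 higher and 717 lower genes. CDKN1A had the largest difference among the 8 tested members, 0.67 ± 0.16 on the log2 scale, or 1.59-fold (limma adjusted p = 0.201). At 6, 24 and 48 h the IL-6 library was 1.17-fold, 1.84-fold and 1.86-fold the control, so it was higher at every time. The levels of the IL-6 and control libraries overlapped because both 6 h libraries were low. Without the 6 h pair, that of the smallest difference, the estimate was 0.89 and passed (limma adjusted p = 0.0188). Without the 24 h or 48 h pair it was 0.56 or 0.55 and did not. Over all tested genes 116 passed without the 6 h pair, against 33 in the main fit. Without the 24 h or 48 h pair 16 or 29 passed.

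CDKN2D likewise was higher in all 3 IL-6 libraries, at 1.11-fold, 1.32-fold and 1.49-fold the control at 6, 24 and 48 h, and had a difference of 0.38 ± 0.15 (limma adjusted p = 0.472). CCND3 had nearly the same log2 difference at each time, 0.26, 0.23 and 0.26, and a difference of 0.25 ± 0.10 (limma adjusted p = 0.507). CDK4 was higher by 0.01, 0.22 and 0.05 at 6, 24 and 48 h. These 4 genes, CDKN1A among them, were the members with the IL-6 library above the control in all 3 pairs, 4 of 8 tested, and 12.6% of the tested genes had that pattern. For CDK4 the difference at 6 h was too small to carry a direction. The median difference of the 8 members was 0.13 and that of all tested genes -0.03.

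**Figure D3:**
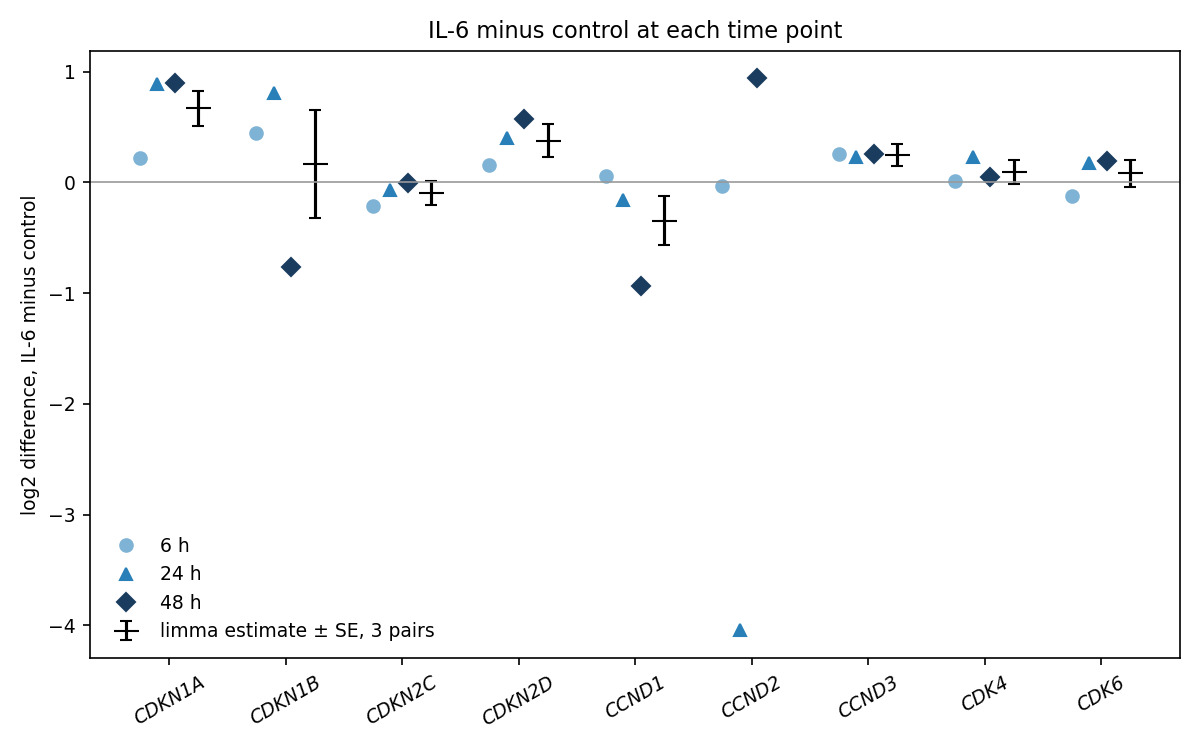
Log2 difference of IL-6 minus control for the 9 genes at 6 h (circles), 24 h (triangles) and 48 h (diamonds), with the limma estimate over 3 pairs as a black bar with its SE for the 8 tested genes. CDKN1A is at 0.22, 0.88 and 0.90, CCND3 is flat between 0.23 and 0.26, CDKN1B and CCND2 lie on both sides of 0, and CCND2 at 24 h is the lowest point at -4.05.

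CCND1 went the other way from CDKN1A at the last time. The IL-6 library was at 1.04-fold, 0.897-fold and 0.524-fold the control at 6, 24 and 48 h, and the pooled difference was -0.35 ± 0.22 (limma adjusted p = 0.705). CDKN1B, the Cip/Kip inhibitor p27 on chromosome 12 from 12685498 to 12722369, had levels of 1.26, 1.64 and 0.921 with IL-6 at 6, 24 and 48 h, against 0.926, 0.932 and 1.56 in the controls. It was higher with IL-6 at 6 and 24 h and lower at 48 h, and the pooled difference was 0.16 ± 0.49 (limma adjusted p = 0.953). CCND2, cyclin D2, on chromosome 12 from 4269771 to 4305353, was near the lower end of what was listed, at 0.215, 0.0205 and 0.299 with IL-6 and 0.219, 0.338 and 0.156 in the controls. Its wide range of 4.05 on the log2 scale rests on the IL-6 library of 24 h, and at such levels a single library says little. CDKN2C and CDK6 had differences of -0.10 ± 0.11 and 0.08 ± 0.12 (limma adjusted p = 0.861 and 0.897), and CDK4 one of 0.09 ± 0.11 (limma adjusted p = 0.862).

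At single time points there is no test. Genes were kept if their mean level in the pair was 10 or more or was not recovered. This left 7, 7 and 6 members at 6, 24 and 48 h, and none was 2-fold apart between IL-6 and control. CCND1 at 48 h, with levels of 5.51 and 10.5, fell below this filter. Of all genes kept by it, those 2-fold apart made up 1.01% of 7305 at 6 h, 1.72% of 7693 at 24 h and 1.65% of 7619 at 48 h. A model asking whether the IL-6 difference at 6 h departed from its mean at 24 and 48 h called none of the 8 members and 0.237% of tested genes. For CDKN1A the term was -0.67 ± 0.33 and did not pass (limma adjusted p = 1), where 1 residual degree of freedom was left, so a change of its IL-6 difference with time was not shown. In bulk RNA, fewer cells of a kind and less RNA per cell cannot be told apart.

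The remaining CDK inhibitors added little. CDKN2A and CDKN2B, the INK4 genes p16 and p15, had no value in any library, and CDKN1C (p57) was below the level filter. CDKN3, whose product is a phosphatase that removes the activating phosphate of CDK2, is itself expressed in dividing cells. Its difference was 0.54 ± 0.14 at 24 h against 6 h (limma adjusted p = 0.0896), and it fell by 0.92 ± 0.14 at 48 h against 24 h (limma adjusted p = 0.0259). This call was lost without the variance trend, without the agent term, without the level filter and with non-robust shrinkage.

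Downstream of the D-type cyclins, some genes of S phase fell at 24 h against 6 h. Of 18 E2F target genes of S phase, 4 fell and none rose, and the list's median difference was -0.49, against 0.11 for all tested genes. Over all 13513 tested genes 40 fell and 218 rose. PCNA, the sliding clamp of DNA polymerase and a partner that p21 binds, fell by 0.87 ± 0.15 (limma adjusted p = 0.0170), and CDC45 by 0.75 ± 0.16, CDC6 by 0.74 ± 0.15 and MCM3 by 0.60 ± 0.13. CDC45 and MCM3 belong to the replicative helicase, and CDC6 helps to load its MCM ring. At 48 h against 6 h none of the 18 passed and the median was -0.24. The count of 4 was 9 without the 48 h pair, 1 without the agent term, without the level filter or with non-robust shrinkage, and 0 without the variance trend. Of 13 pocket proteins and E2F factors, 1 passed at 24 h: E2F1, which activates S-phase genes, fell by 0.79 ± 0.15 (limma adjusted p = 0.0302), with a median of the list of -0.24. The call of E2F1 was lost without the agent term, without the level filter, without the trend and with non-robust shrinkage.

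Of 14 genes of G2 and mitosis, 9 rose at 24 h against 6 h, with a list median of 0.99, and 7 fell at 48 h against 24 h, with a median of -0.77. The medians of all tested genes were 0.11 and -0.03. Over all 13513 tested genes 218 rose at 24 h and 339 at 48 h against 6 h, and 56 fell at 48 h against 24 h. CCNB1, cyclin B1, rose by 1.52 ± 0.13 at 24 h (limma adjusted p = 0.00169) and fell by 0.88 ± 0.13 between 48 and 24 h (limma adjusted p = 0.0235). CCNB2, PLK1 and CENPF rose by 1.31 ± 0.13, 1.35 ± 0.16 and 1.29 ± 0.14 at 24 h. At 48 h against 6 h 2 of the 14, CCNB1 and PLK1, remained higher, by 0.65 ± 0.13 and 0.81 ± 0.16. CDKN1A at 48 h was 3.02-fold its 6 h level. At 48 h against 6 h the count of 2 was 1 without the agent term and 0 without the level filter, without the trend or with non-robust shrinkage. The count of 9 was 0 without the variance trend and 2 with a pseudocount, which leaves out genes with no recovered level. That of 7 was 1 with a pseudocount, 3 with equal medians and 0 without the trend, without the agent term, without the level filter or with non-robust shrinkage. With IL-6 against control none of these 18, 13 or 14 genes passed, and the list medians were -0.07, -0.09 and -0.04, against -0.03 for all tested genes.

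**Figure D4:**
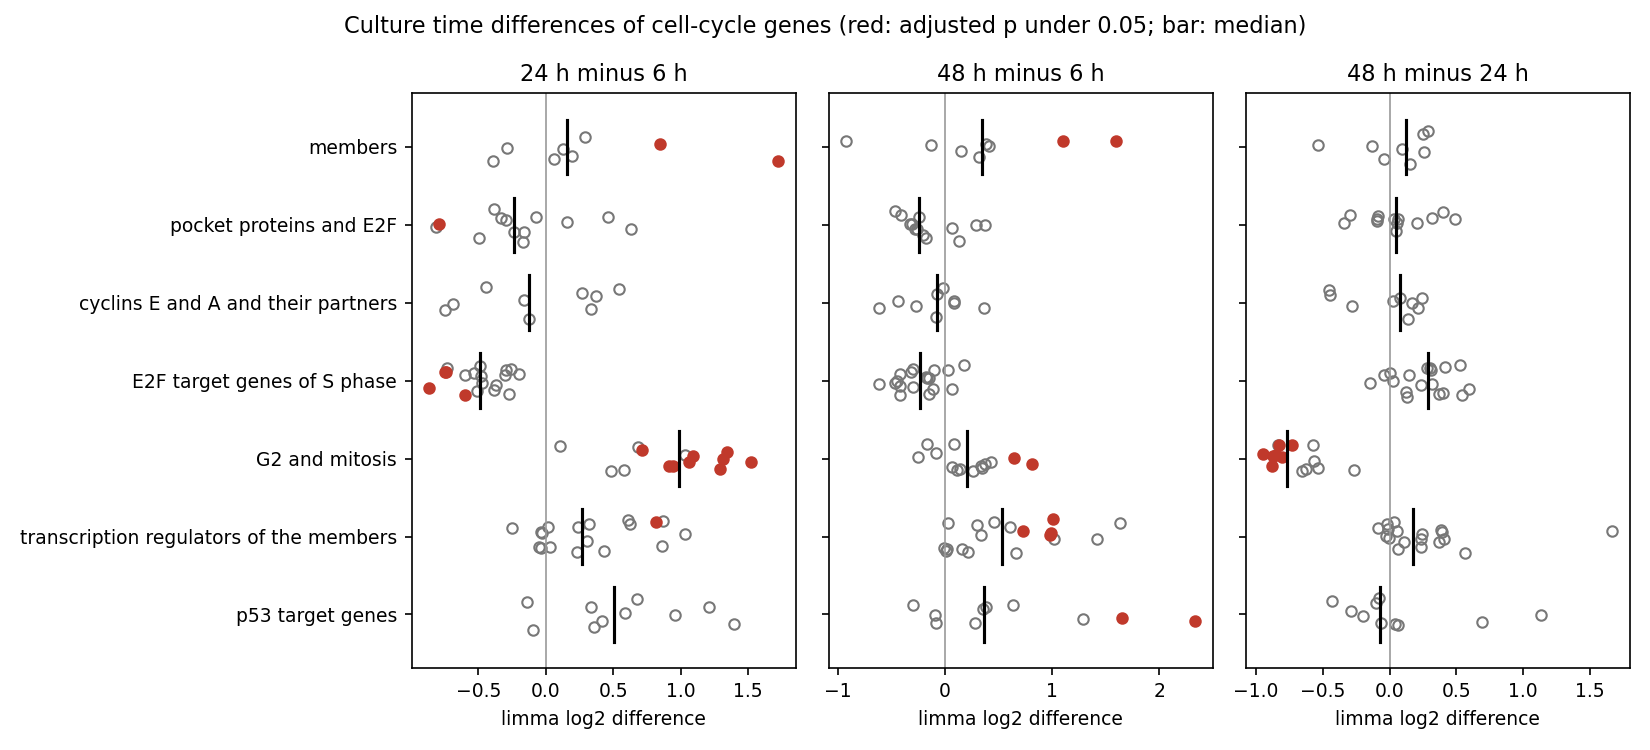
Limma log2 difference for 24 h minus 6 h, 48 h minus 6 h and 48 h minus 24 h (3 panels, each averaged over IL-6 and control and each with its own horizontal scale), 1 circle per tested gene of each list, filled red where the adjusted p is under 0.05, with the median of each list as a black bar. In the left panel the S-phase genes lie below 0 and the G2 and mitosis genes above 0, and in the right panel 7 G2 and mitosis genes are red below 0.

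Cyclins E and A and their partners, 9 genes, held none that passed in any of these comparisons. The largest IL-6 differences of this list were -0.57 ± 0.21 for CCNA1 and 0.29 ± 0.12 for CCNH (limma adjusted p = 0.442 and 0.512). Of 14 tested genes for the turnover of p27, p21 and D-type cyclins none passed either. There DDB1, of the ubiquitin ligase that marks p21 in S phase, had an IL-6 difference of -0.34 ± 0.14, and FBXW7, which marks cyclin E, one of -0.47 ± 0.23 (limma adjusted p = 0.496 and 0.591).

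Regulators known to act on these genes rose in part with culture time. Of 18 tested transcription regulators, 4 rose at 48 h against 6 h and none fell, with a list median of 0.53, against 0.07 for all tested genes. Over all 13513 tested genes 339 rose and 192 fell in this comparison. FOXO3, known to act on the CDKN1B promoter, rose by 1.01 ± 0.17 (limma adjusted p = 0.0139), CEBPB, a myeloid factor, by 0.99 ± 0.18, KLF6, known to act on CDKN1A, by 0.98 ± 0.22, and MXI1, an antagonist of MYC, by 0.73 ± 0.18. The count of 4 was 2 with equal medians, without the level filter or with non-robust shrinkage, 1 without the agent term and 0 without the variance trend. CDKN1B itself was not among the genes that rose, with a difference of 0.15 ± 0.60 at 48 h against 6 h. With IL-6, 1 of the 18 passed, STAT3, higher by 0.78 ± 0.12 (limma adjusted p = 0.0278), a call lost without the 24 h or the 48 h pair, without the time term, the trend or the level filter, and with non-robust shrinkage. Of 10 tested genes of the p53 response, a pathway for which CDKN1A is the best-known target and which THP-1 cells are known to lack in functional form, 2 rose at 48 h against 6 h. These were SESN2, by 2.34 ± 0.29 (limma adjusted p = 0.00354), and BBC3, by 1.65 ± 0.37 (limma adjusted p = 0.0374), both of which other stress factors are also known to induce. The list median was 0.37, against 0.07 for all tested genes. The count of 2 was 1 without the 24 h pair, without the agent term, without the level filter or with non-robust shrinkage, and 0 without the trend. Neither list had a gene that fell.

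The genes whose 6 values lay nearest to those of a member were looked up for the 3 members with the widest range. For CDKN1A these were ATF5, IRF7 and SAP30-DT, each at a root mean square distance of 0.22 over the 6 libraries, against a median of 0.88 over all tested genes. For CDKN2D they were GPT2 and CEBPB at 0.11 and an unnamed lncRNA gene, ENSG00000274828, at 0.12, against a median of 0.56. CEBPB thus had deposited values of -0.41, 0.32 and 0.68 with IL-6 at 6, 24 and 48 h, against -0.65, -0.17 and 0.23 in the controls. Those of CDKN2D were -0.57, 0.40 and 0.74 with IL-6, against -0.73, 0.0005 and 0.16 in the controls. For CCND2 they were GARNL3, VAMP1 and ZNF460 at 0.41, 0.49 and 0.55, all genes of mean level under 4 with the IL-6 library of 24 h far lowest.

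The library kits do not mark the strand, so reads of overlapping genes cannot be told apart. CDK6-AS1, on the opposite strand of CDK6, had a mean level of 16.4, and its values of -0.09, 0.48 and -0.39 with IL-6, against 0.23, 0.06 and -0.30 in the controls, did not follow those of CDK6. TSPAN31, opposite CDK4, had a mean level of 38.7 and values of -0.76, 0.09 and 0.38 with IL-6, against -0.40, 0.66 and 0.04 in the controls, a wider range than that of CDK4. LTO1, opposite CCND1, had a mean level of 6.53. Its values were 0.56, 0.17 and -0.41 with IL-6, against -0.22, -0.001 and -0.11 in the controls. With IL-6 it fell over time as CCND1 did, and in the controls it did not follow CCND1. GPR19, opposite CDKN1B, had a mean level of 0.39. Its values were -0.330, 1.502 and -0.832 with IL-6, against -0.404, 0.171 and -0.107 in the controls. Like CDKN1B, GPR19 was above the control at 6 and 24 h and below it at 48 h. The part of these overlaps in the values of CCND1 and CDKN1B was not tested. A further gene on the strand of CCND2, at a mean level of 0.88, was above CCND2 itself. CDKN2C and CDKN2D had no overlapping row, and the row that overlaps CDKN1A had no value.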

How the data were processed

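RNA-seq of total RNA was done with the SMART-Seq v4 low-input kit and Nextera XT on an Illumina NovaSeq, per the labels' protocols, with GRCh38 (hg38) as the build per the submitters' processing notes. Not given in the sources used here are the aligner, the counter, the annotation and the normalization. The deposited values are log2 values, headed as a processed signal per the file headers, and the authors centred each gene to a mean of 0 (largest deviation 8.4e-08). The depth is unknown. Of 17388 genes with 6 values, 90.3% had a level recovered: 1 offset per library was removed and whole-number ratios were matched in steps of 0.001 up to 100, with relative tolerances of 2e-06 up to 5000 steps and 6e-07 above. The other 1686 genes were treated as high.

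Differences were tested with limma 3.58.1 in R 4.3.3 on the deposited log2 values, with time and agent as terms, robust empirical Bayes with a trend on level (median prior of 8.09 degrees of freedom), and Benjamini-Hochberg adjustment at 0.05 over the 13513 genes listed in all 6 libraries whose mean level was 1 or more or not recovered. The scripts were tested on simulated data. No condition was repeated, so p-values reflect only how these libraries vary, which may be technical, and a change of the IL-6 effect over time adds to its error. The members and lists were chosen with earlier results of these data known. All members were named, with at most 4 genes of each list past the threshold by size or, if none passed, the 2 with the largest IL-6 difference, and the 3 tested genes nearest to each of the 3 members with the widest range. Alternatives were other scalings, filters, pseudocounts, variance models and left-out pairs. Protein sequences were not analysed here, and some marker genes are not reported here.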

Additional observations from a re-analysis of the deposited data

Results flagged for a closer look

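CDKN1B and CCND2 stood on opposite sides of their controls at 24 and 48 h, each by at least 1.5-fold. For CDKN1B, the IL-6 library minus the control was 0.81 at 24 h and -0.76 at 48 h on the log2 scale, at levels between 0.921 and 1.64. For CCND2 it was -4.05 at 24 h and 0.94 at 48 h, at levels between 0.0205 and 0.338. Each value compares 1 library with 1 library, and the difference between the times was not tested for either gene. Both genes were the lowest of the 6 members with a recovered level.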

How the results depend on the processing

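The members kept their direction under the alternatives run except in the following. For CDKN1B the IL-6 difference lay between -0.159 and 0.628 with 1 pair left out, and its difference between 48 and 24 h was 0.00295 with equal medians of genes at level 10. For CDK6 the difference of 24 h against 6 h was -0.0409 with equal medians and -8.37e-06 with equal medians at level 10. The change of the IL-6 effect of CCND3 was -0.0511 and -0.0440 under these scalings. Within single agents CDKN1B turned at 48 h against 6 h (-0.45 with IL-6) and at 48 h against 24 h (0.75 in controls), and CDK6 at 24 h against 6 h (-0.09 in controls). The single-time differences of CDKN2C turned to 0.005 at 24 h and 0.03 at 48 h with equal medians.

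Of members that rose, 2 at 24 h against 6 h in the main analysis, 1 was left with equal medians, with equal medians at level 10, with non-robust shrinkage and without the level filter, and 0 without the variance trend or the agent term. At 48 h against 6 h the 2 became 0 without the trend or the agent term. With IL-6 the number of members that rose was between 0 and 1 with 1 pair left out, the 1 being CDKN1A without the 6 h pair.

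Over all genes, 33 passed with IL-6, 0 without the trend, 12 with non-robust shrinkage, 13 without the level filter, 4 without the time term and between 16 and 116 with a pair left out. At 24 h against 6 h 258 passed, and the counts were 0, 148 and 144 for the first 3 of these changes, 389 at a level of at least 5, 128 without the agent term and 559 without the 48 h pair. At 48 h against 6 h 531 passed, and 0, 255, 268, 216 without the agent term and 319 with a pseudocount of 0.1. Between 48 and 24 h 70 passed, and 0, 8, 10, 132 at a level of at least 5, 34 with that pseudocount, 3 without the agent term and 178 without the 6 h pair. The change of the IL-6 effect had 32 genes, 21 with equal medians and 0 without the trend. The causes were not tested. The labels carry no replicate numbers, and the time term of the main model pairs the libraries. Depth is unknown, so no value has an interval for counting error.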
